A study of Mus musculus with 6 samples.

Results

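Srrm3, Disp2, Svop, Chrnb2 and Adgrv1 are genes best known from neurons and sensory cells. Their counts were far higher in mouse hepatoma cells given Crebl2 siRNA than in cells given control siRNA. They are described here beside Rest, the gene of the repressor that keeps many neuronal genes silent outside the nervous system, and beside 4 genes of its corepressors (Rcor1, Rcor2, Kdm1a and Sin3a). These 10 genes are a small part of the 38828 genes with a deposited row. The 5 neuron-type genes were chosen because they were higher after knockdown in these same libraries, so their values are given as a description and no test is attached to them. Rest and the corepressor genes were listed for their role and carry the test over all genes.

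RNA sequencing was done on total RNA of Hepa1-6 cells, an established mouse hepatoma line, with a stranded kit. Control cells received siRNA to Renilla luciferase, which has no target in mouse cells, and the other cells received siRNA to Crebl2, a basic leucine zipper protein of the CREB family. Both groups were transfected with the same lipid reagent for 3 days, in the same high-glucose medium with serum, and each has 3 libraries. Whether the libraries of a group stand for separate cultures is not in the labels, so p-values reflect the spread between these libraries, which may be technical. All cells are of 1 line, the siRNA sequences are not given in the sources used here, and the labels describe no other siRNA to Crebl2 and no rescue.

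Total counts per library lay between 27082572 and 29158489. Crebl2 had 3248, 3162 and 3041 counts in controls and 813, 826 and 896 after knockdown. Its log2 fold change was -1.90 ± 0.0582 (SE), with every knockdown library below every control (edgeR adjusted p = 2.83e-12, n = 3 per group). Of the hepatocyte markers, Alb and Afp were well counted in every library. Hnf4a, Serpina1a and G6pc were at 0 in all 6, on 6, 221 and 2414 bases where counts could fall. The 12 hepatocyte markers summed to 1043 to 1127 CPM, that is counts scaled to library size, in the control libraries and to 1016 to 1095 CPM in the Crebl2 siRNA libraries. Most of each sum came from Alb, Afp and Trf. Their means were 581, 278 and 178 CPM in controls and 540, 356 and 133 CPM after knockdown. Like sums thus do not mean that single markers were unchanged, and those called are given below.

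REST is a zinc finger protein that binds a DNA element known as RE1 or NRSE, found near many genes for synaptic proteins, ion channels and neuropeptides. It recruits the CoREST complex, which holds the RCOR proteins, the histone demethylase KDM1A (LSD1) and the histone deacetylases HDAC1 and HDAC2, and it also recruits the SIN3 complex, which carries the same deacetylases. In most cells outside the nervous system REST is present and its neuronal targets are off. SRRM4, and its relative SRRM3, are splicing activators of neural microexons, and SRRM4 is known to promote a short REST form with less repressor activity.

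The RE1 element has a left block, AGCACC, and a right block, GGACAG, with a few bases between them. Both strands of the first 1000 bases of annotated transcripts were searched (GENCODE M21, GRCm38) and wider genome windows were not analysed here. A search for both blocks with no mismatch and 2 to 9 bases between them found 208 of 21951 protein-coding genes (0.948%). Among the 10 genes it found Disp2, Svop and Chrnb2, each in exon 1 ahead of the coding sequence. The sequences are shown as a description. The genes were picked as neuron-type genes that rose and were grouped with Rest, so matches are not independent of that choice. Those of 5 known REST targets that were tested and had a listed match follow for comparison. Matches on a chromosome left out of the listing are not covered, so these 5 may not be all. Capitals mark the bases that match the 2 blocks, and a small letter inside a block is a mismatch.
Chrnb2: ttcAGCACCacGGACAGcgct
Disp2: ttcAGCACCagagcccGGACAGcggc
Svop: ttcAGCACCgggatgctGGACAGctct
Syp: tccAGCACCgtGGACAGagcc
Unc13a: ttcAGCACCgggggcgcGGACAGcgcc
Srrm4: ttcAGCACttcGGACAGcgcc
Rundc3a: ctcAGCACCtcGGAgAGctcc
Vgf: ttcAGCACgctGGACAGcgcc

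The Chrnb2 sequence is chr3:89764454-89764474 on the minus strand, the strand of the gene, and has a spacer of 2 bases. The Disp2 sequence is chr2:118779733-118779758 on the plus strand, also that of the gene, and has a spacer of 7 bases. The Svop sequence is chr5:114091256-114091282 on the plus strand, opposite to the gene, with a spacer of 8 bases. Chrnb2 was the only one of the 10 genes with both blocks, no mismatch and the 2-base spacer, which 48 of the 21951 genes had (0.219%). With 1 mismatch allowed at that spacer, 704 genes matched (3.21%), and Kdm1a was added to Chrnb2. The Kdm1a match lies within the first 1000 bases of a short transcript only, in coding sequence that is exon 17 of its longer transcript. Srrm3, Adgrv1 and Rest had no match in the transcripts searched under any of these settings. The comparison sequences are chrX:7638737-7638757 for Syp, in coding sequence of exon 1, and, ahead of the coding sequence in exon 1, chr8:71671727-71671753 for Unc13a, chr5:116591495-116591515 for Srrm4 and chr11:102393452-102393472 for Rundc3a. That of Vgf is chr5:137030274-137030294, in exon 4 of Vgf-204 ahead of its coding sequence. A match is a run of letters and not a measured binding site, and no match says only that the letters are not in the window read.

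The RefSeq promoter table (GRCm38.p6) holds a window from 250 bases before to 50 bases after the start for 7 of the 10 genes, not for Disp2, Svop or Rest. None of the 7 held the blocks at the 2-base spacer with at most 1 mismatch, which 111 of 27025 genes with a window did (0.411%). The Chrnb2 match lies in the transcript beyond the end of its window. The full cyclic AMP response element, TGACG followed directly by TCA, which CREB family proteins are known to bind, was in none of the 7 either and in 549 genes of all (2.03%). Its shorter form TGACG, searched on both strands (CGTCA on the other), was in the windows of Srrm3, Chrnb2, Rcor1 and Sin3a, and in 6228 genes of all (23%). The 250 bases ahead of the Srrm3 start, chr5:135817856-135818105 on the plus strand, are shown because Srrm3 had the largest difference, with its 2 short elements in capitals.
Srrm3: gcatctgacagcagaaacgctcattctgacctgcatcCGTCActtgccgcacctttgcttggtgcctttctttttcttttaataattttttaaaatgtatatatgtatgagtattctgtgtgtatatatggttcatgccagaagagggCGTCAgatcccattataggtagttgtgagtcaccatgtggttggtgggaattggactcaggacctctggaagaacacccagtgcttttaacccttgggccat

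The deposited counts fall almost entirely on bases that belong to a single deposited transcript row, here called own bases. The 9603 rows without such a base held 0.0235% of all counts. This decides how well each of the 10 genes was measured, and counts of different genes cannot be compared as levels. Srrm3 and Svop were measured over the full length of their rows, 3932 and 3379 bases. Disp2 was measured mostly over 5126 bases of its last exon, Chrnb2 over 3848 bases and Adgrv1 over 9036 bases. Rest was measured on its first exons alone, Rcor2 almost only on its first exon, Kdm1a on 60 bases of 1 exon, and Sin3a on 23 bases in all.

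**Figure D1:**
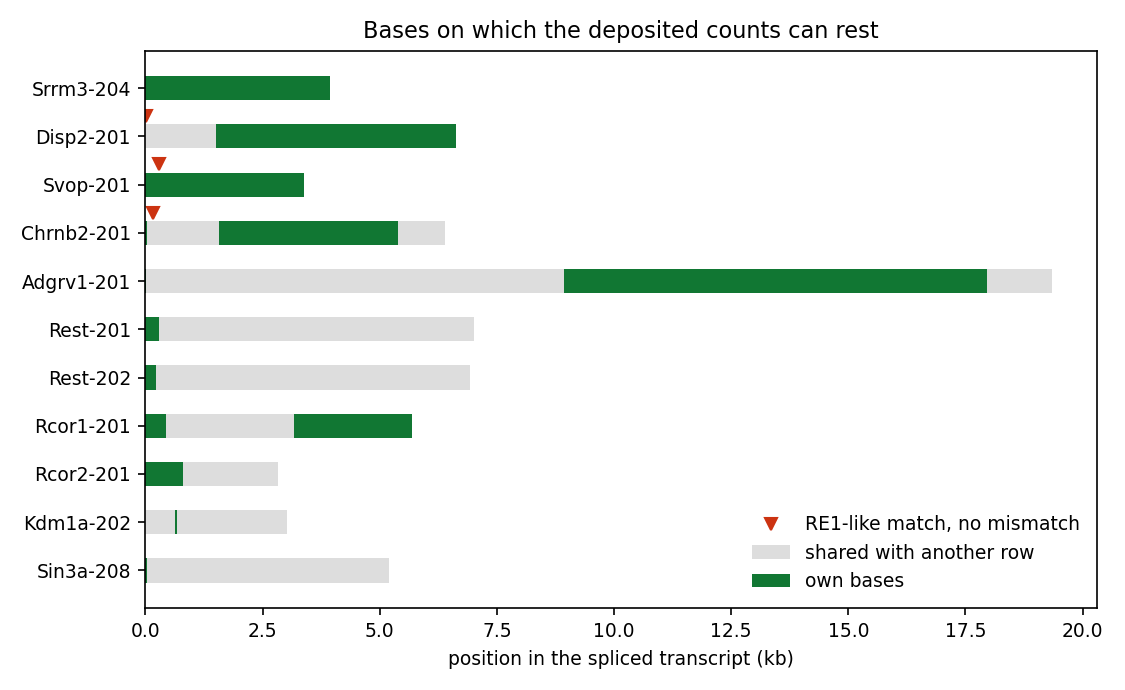
Spliced transcripts of the 10 genes, with position from the transcript start in kb on the horizontal axis. Green stretches are the own bases on which counts can rest, grey stretches are shared with another row, and red triangles mark RE1-like matches with no mismatch; green covers all of Srrm3-204 and Svop-201 and only a thin piece of Rest, Kdm1a and Sin3a.

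For all 5 neuron-type genes the lowest Crebl2 siRNA library was above the highest control. The differences ran from about 3-fold for Chrnb2 to about 110-fold, by summed counts, for Srrm3. Groups did not overlap for 48.8% of the 11616 genes tested, and since these 5 were chosen on this contrast nothing is read from their count.

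Srrm3, a plus-strand gene of chromosome 5 (135818106 to 135874772, GRCm38), encodes a splicing regulator of neural microexons. It had 5, 2 and 1 counts in controls and 277, 290 and 310 after knockdown. It was close to 0 in control cells and even across the 3 knockdown libraries. Controls averaged 0.0946 ± 0.072 CPM and knockdown libraries 10.5 ± 0.633 CPM (SD, n = 3). The ratio of the summed counts was 110, with a 95% exact interval of 55.5 to 255 that covers counting error only. The fitted log2 fold change was 6.71 ± 0.241 (SE), the highest of the 11616 genes tested. With so few control counts 1 library moves it, and without control replicate 1 it was 7.47. Its counts are those of Srrm3-204, the only row deposited for its 6 annotated transcripts, so they do not tell these transcripts apart.

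Of the other SRRM genes 1 fell, 1 was not called and 1 was not tested. Srrm4, its closest relative, had 339, 330 and 354 counts in controls and 250, 290 and 284 after knockdown, and fell by 0.31 ± 0.0948 on the log2 scale (edgeR adjusted p = 0.0154, n = 3 per group). Its groups did not overlap, but without control replicate 3 the call was lost (edgeR adjusted p = 0.0809). Srrm2, a general spliceosome protein, was not called (log2 fold change 0.19 ± 0.124, edgeR adjusted p = 0.244, n = 3 per group) and its groups overlapped. Srrm1 had 3 counts in each group over 341 own bases and was not tested.

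Disp2, on the plus strand of chromosome 2 (118779719 to 118811293), encodes a dispatched-type membrane protein of the family whose member DISP1 releases Hedgehog. It had 81, 93 and 88 counts in controls and 651, 684 and 633 after knockdown. The groups were far apart and each was tight. The means were 3.14 ± 0.263 CPM in controls and 23.6 ± 0.94 CPM after knockdown (SD, n = 3), with a log2 fold change of 2.91 ± 0.0996, the rank of 7 from the highest. The row Disp2-201 went from 255 to 1903 counts, a ratio of 7.47 (95% exact interval 6.55 to 8.55). The separate row Disp2-203 went from 7 to 61, a ratio of 8.72 (3.99 to 22.6), so 2 rows that own different bases showed a like ratio. The other dispatched genes were barely counted, with 17 and 11 counts per group for Disp1 and 4 and 5 for Disp3, and neither was tested.

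Svop, on the minus strand of chromosome 5 (114026910 to 114091570), encodes a synaptic vesicle protein related to SV2. It had 75, 85 and 71 counts in controls and 393, 360 and 332 after knockdown. Every knockdown library was far above every control library, and neither group was wide. The means were 2.77 ± 0.243 CPM in controls and 13 ± 1.05 CPM after knockdown (SD, n = 3), with a log2 fold change of 2.23 ± 0.118, the rank of 23 from the highest. Sv2a, the widely expressed vesicle protein of the same transporter group, fell. It had 265, 243 and 238 counts in controls and 175, 155 and 144 after knockdown, and fell by 0.65 ± 0.108 on the log2 scale (edgeR adjusted p = 0.000159, n = 3 per group). Sv2c, Svopl and Sv2b had 15 and 18, 8 and 3, and 0 and 0 counts in the 2 groups, and were not tested.

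Chrnb2, on the minus strand of chromosome 3 (89746195 to 89764632), encodes the beta2 subunit of neuronal nicotinic acetylcholine receptors. It had 90, 122 and 112 counts in controls and 348, 315 and 315 after knockdown. Of the 5 genes it had the highest control counts and the smallest difference. The means were 3.89 ± 0.644 CPM in controls and 11.7 ± 0.639 CPM after knockdown (SD, n = 3), with a log2 fold change of 1.59 ± 0.122, the rank of 75 from the highest. Its rows Chrnb2-201 and Chrnb2-203 had ratios of 3.02 (95% exact interval 2.66 to 3.44) and 3 (1.31 to 7.73). Adar lies opposite Chrnb2 on the other strand, and the Adar rows that overlap it had 0 counts in all libraries. Bases shared between rows gather almost no counts, so this does not say whether Adar RNA covers Chrnb2.

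The subunits that CHRNB2 is known to pair with had few counts in both groups. Chrna4 had 4 counts in the control libraries together and 1 after knockdown, and Chrna2, Chrna5 and Chrna7 had 2 and 2, 2 and 1, and 0 and 0. Chrna3 had 3, 6 and 8 counts in controls and 4, 15 and 14 after knockdown, a ratio of 1.94 (95% exact interval 1.05 to 3.72), with overlapping groups. Chrnb4, which is known to form receptors with CHRNA3, had 8 counts in controls and 20 after knockdown, a ratio of 2.5 (1.06 to 6.57). Both were below the expression filter and were not tested. Of the 16 nicotinic subunits only Chrnb2 and Chrnb1 were tested. Chrnb1, a subunit of the muscle receptor, had 3245, 3478 and 3349 counts in controls and 1941, 1854 and 1859 after knockdown, and fell by 0.83 ± 0.0548 on the log2 scale (edgeR adjusted p = 8.03e-09, n = 3 per group). The remaining subunits (Chrna1, Chrna6, Chrna9, Chrna10, Chrnb3, Chrnd, Chrne and Chrng) had at most 3 counts in either group, and Chrne has only 25 own bases.

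Adgrv1, on the minus strand of chromosome 13 (81095068 to 81633154), encodes a very large adhesion G protein-coupled receptor of hair cells and photoreceptors. It had 44, 15 and 29 counts in controls and 166, 215 and 166 after knockdown. Its control libraries varied the most of the 5 genes in relative terms apart from Srrm3, and the groups did not overlap. The means were 1.05 ± 0.503 CPM in controls and 6.56 ± 1.03 CPM after knockdown (SD, n = 3), with a log2 fold change of 2.63 ± 0.228, the rank of 10 from the highest. Myo7a, a motor protein of the same hair cell network, had 163, 163 and 200 counts in controls and 235, 250 and 238 after knockdown and rose by 0.46 ± 0.115 on the log2 scale (edgeR adjusted p = 0.00466, n = 3 per group). Of 27 adhesion receptor genes 7 were tested, Adgrv1 among them. Adgrf5 rose by 0.25 ± 0.0637 (edgeR adjusted p = 0.00472, n = 3 per group), while Adgra2 fell by 0.68 ± 0.132 and Adgrl1 fell by 0.23 ± 0.0624 on the log2 scale (edgeR adjusted p = 0.000646 and 0.00795).

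**Figure D2:**
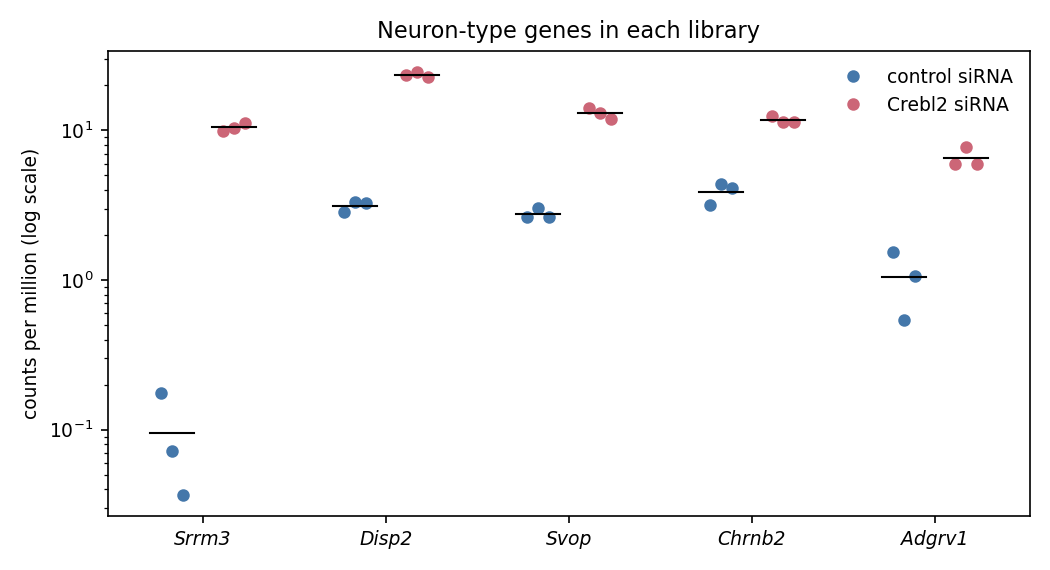
CPM of the 5 neuron-type genes in each library, on a log scale, with control siRNA libraries in blue, Crebl2 siRNA libraries in red and a black bar at each group mean. Every red point lies above every blue point of the same gene, and the gap is widest for Srrm3 (0.0946 and 10.5 CPM) and narrowest for Chrnb2 (3.89 and 11.7 CPM).

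Within 100 kb of these 5 genes lie 21 other tested genes, none of which overlaps them. Of these, 7 rose, 3 fell and 11 were not called, against 18.8% raised and 20.1% lowered among all genes tested (2180 and 2338 of 11616). With scaling by library size alone those totals were 2741 and 1920. Their log2 fold changes ran from -1.48 for Kcnn3, beside Chrnb2, to 1.00 for Ung, beside Svop, both named after their values were seen. The genes next to Srrm3 had log2 fold changes of 0.20 for Mdh2, 0.32 for Tmem120a and -0.16 for Ywhag.

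Rest mRNA did not differ detectably between the groups, and its measurement was thin. Rest is a plus-strand gene of chromosome 5 (77265491 to 77286432). It had 48, 27 and 24 counts in controls and 24, 28 and 28 after knockdown. The groups overlapped, and control replicate 1 stood above the other 5 libraries. The means were 1.18 ± 0.439 CPM in controls and 0.959 ± 0.0865 CPM after knockdown (SD, n = 3). The log2 fold change was -0.30 ± 0.271 (SE) and was not called (edgeR adjusted p = 0.409, n = 3 per group). An exact two-sided permutation test of log2 CPM gave p = 0.8, where the smallest p possible with 3 against 3 is 0.1. Without control replicate 1 the log2 fold change was 0.0462, so that library sets its sign. The ratio of summed counts, 99 and 80, was 0.809 with a 95% exact interval of 0.595 to 1.1, which covers counting error only. The lower bound of that interval is a fall that these counts could not tell from no change. Since the interval leaves out the spread between libraries, a larger fall may also go unseen.

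The Rest counts do not describe the whole mRNA. The deposited rows Rest-201 and Rest-202 share all but their first exons, so only 298 bases of one (chr5:77265491-77265788) and 218 bases of the other (chr5:77266196-77266413) could gather counts, out of 7004 and 6924 bases. Rest-201 had 44, 24 and 23 counts in controls and 24, 25 and 27 after knockdown. Rest-202 had 4, 3 and 1 counts and then 0, 3 and 1. No deposited row separates the neural splice form of REST, and protein was not measured. The share of REST that is the short form, and any change in REST protein, cannot be read from these counts.

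Rcor1, which encodes CoREST itself, rose slightly. Rcor1 is a plus-strand gene of chromosome 12 (111039351 to 111115901). It had 2622, 2377 and 2325 counts in controls and 2790, 2902 and 3004 after knockdown, with groups that did not overlap. The means were 87.6 ± 3.74 CPM and 104 ± 4.22 CPM (SD, n = 3), and the log2 fold change came to 0.25 ± 0.0548 (edgeR adjusted p = 0.00169, n = 3 per group).

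Rcor2, the RCOR paralog known from stem cells and neural progenitors, had lower counts after knockdown. All of them came from the row Rcor2-201, whose own bases are 810 of exon 1 and 1 of the last exon, out of 2823. The counts thus describe its first exon and not the whole mRNA. Rcor2 is a plus-strand gene of chromosome 19 (7268279 to 7275225). It had 132, 123 and 138 counts in controls and 110, 87 and 91 after knockdown, with groups that did not overlap. The means were 4.71 ± 0.349 CPM and 3.45 ± 0.428 CPM (SD, n = 3), and the log2 fold change came to -0.45 ± 0.137 (edgeR adjusted p = 0.0162, n = 3 per group). The call was lost in DESeq2 (adjusted p = 0.0512), without Crebl2 siRNA replicate 2 (edgeR adjusted p = 0.0776) and without control replicate 3 (edgeR adjusted p = 0.0736).

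Kdm1a and Sin3a could hardly be measured. Kdm1a lies on the minus strand of chromosome 4 (136550540 to 136602723), and its 43 control counts and 61 knockdown counts all fell on exon 3 of 20 of Kdm1a-202, a coding exon of 60 bases at chr4:136582040-136582099 on the minus strand. The other deposited row, Kdm1a-203, lacks this exon, so the counts describe only RNA that includes it. A change in use of the exon and a change in Kdm1a level cannot be told apart. This exon is printed because it is the only part of the gene that the Kdm1a counts describe.
Kdm1a: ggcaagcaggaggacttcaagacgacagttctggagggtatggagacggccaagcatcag

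Kdm1a had 16, 14 and 13 counts in controls and 20, 15 and 26 after knockdown, with overlapping groups. Its log2 fold change was 0.50 ± 0.307 and was not called (edgeR adjusted p = 0.213, n = 3 per group), and the ratio of the summed counts was 1.42 (95% exact interval 0.946 to 2.15). Sin3a, on the plus strand of chromosome 9 (57075338 to 57128366), was at 0 in all 6 libraries on its 23 own bases, which says nothing about its level in the cells. Of the 4 corepressor genes 3 were thus tested, of which 1 rose and 1 fell, where 18.8% of all genes tested rose and 20.1% fell.

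**Figure D3:**
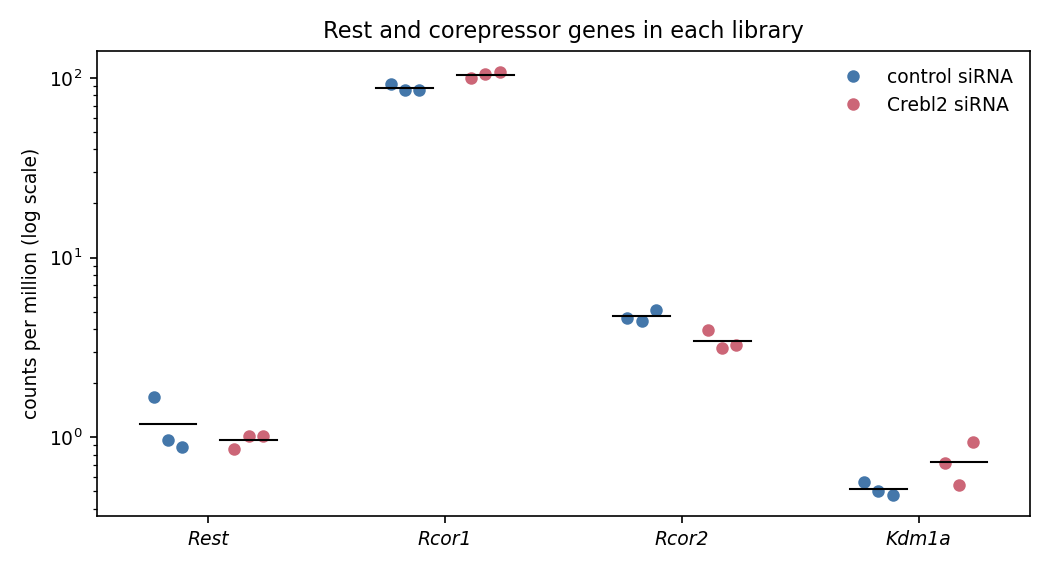
CPM of Rest, Rcor1, Rcor2 and Kdm1a in each library, on a log scale, with control siRNA libraries in blue, Crebl2 siRNA libraries in red and a black bar at each group mean. Red and blue points overlap for Rest and Kdm1a, while Rcor1 is slightly higher (87.6 and 104 CPM) and Rcor2 slightly lower (4.71 and 3.45 CPM) in the Crebl2 siRNA libraries.

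Among the wider set of REST partners some genes rose and some fell. Of 34 genes for the CoREST and SIN3 complexes and other partners, 26 were tested, 4 rose (15.4%) and 6 fell (23.1%), against 18.8% and 20.1% of all genes. Their median log2 fold change was -0.06, against 0.0052 for all genes tested. Besides Rcor1, the deacetylase gene Hdac1 rose by 0.21 ± 0.0532 (edgeR adjusted p = 0.0054, n = 3 per group), from 1863, 1786 and 1793 counts to 2127, 2021 and 2126. Sap18, a SIN3 complex subunit, fell by 0.33 ± 0.0777 (edgeR adjusted p = 0.00321, n = 3 per group), from 625, 647 and 594 counts to 472, 477 and 538.

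Ehmt1, which encodes the histone methyltransferase GLP, had the largest difference among these partners. It had 19, 19 and 28 counts in controls and 7, 6 and 4 after knockdown, without overlap, and fell by 1.93 ± 0.374 on the log2 scale (edgeR adjusted p = 0.000624, n = 3 per group). These counts are few and rest on 890 own bases. The number of partners that fell was 2 without Crebl2 siRNA replicate 2.

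Genes that act on REST itself were called at shares near those of all genes. Of 16 listed genes for its turnover, dephosphorylation, transport and splicing, 12 were tested, 2 rose (16.7%) and 3 fell (25%), against 18.8% and 20.1% of all genes, with a median log2 fold change of -0.0008. Usp15, a deubiquitinase described for REST, rose by 0.30 ± 0.0515 (edgeR adjusted p = 0.000227, n = 3 per group). Among the small phosphatases that act with REST, Ctdsp2 rose by 0.40 ± 0.105 and Ctdspl fell by 0.34 ± 0.0729 on the log2 scale (edgeR adjusted p = 0.00641 and 0.00146, n = 3 per group). Srrm4 is on this list too and fell, as given above with the library its call depends on.

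Other known REST targets differed in direction. Of 48 listed targets, none of them among the 10 genes, 11 were tested, of which 4 rose (36.4%), 3 fell (27.3%) and 4 were not called, against 18.8% raised and 20.1% lowered among all genes. Their median log2 fold change was -0.13, against 0.0052 for all genes tested. The 48 targets summed to 234 to 265 CPM in controls and to 295 to 343 CPM after knockdown, higher in each knockdown library. Stx1a and Rundc3a, both raised, were then left out after their values were seen. Without them the sums were 96.5 to 108 CPM and 84.6 to 93.3 CPM, lower in each knockdown library. Much of that remainder was Vamp2, named after its values were seen, with 4328 and 3954 counts and not called. The direction of the sum thus depends on which genes are kept. The 37 targets not tested were too low to test, and 17 of those had no count in any library, 14 of which have at least 200 own bases. The list was drawn up with earlier results of these data known, so it is not independent evidence of a direction.

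Stx1a, a syntaxin of the synaptic release machinery, had 2596, 2870 and 2948 counts in controls and 4997, 4545 and 3994 after knockdown. It rose by 0.69 ± 0.0757 on the log2 scale (edgeR adjusted p = 2.53e-06, n = 3 per group). Rundc3a, a neuronal gene whose product binds a Rap GTPase, went from 1331, 1490 and 1331 counts to 1984, 1999 and 1842 and rose by 0.49 ± 0.0625 (edgeR adjusted p = 1.16e-05, n = 3 per group). Both were already well counted in control cells.

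Syp, the vesicle protein synaptophysin, went from 10, 8 and 14 counts to 25, 23 and 21 and rose by 1.10 ± 0.313 (edgeR adjusted p = 0.0102, n = 3 per group). Chgb, a secretory granule protein, went from 24, 30 and 27 to 38, 57 and 43 and rose by 0.77 ± 0.23 (edgeR adjusted p = 0.0139, n = 3 per group). The calls for Syp and Chgb were lost in DESeq2 (adjusted p = 0.068 and 0.0638). That for Syp was also lost without control replicate 2 (edgeR adjusted p = 0.0597), and that for Chgb without control replicate 1 or Crebl2 siRNA replicate 2 (edgeR adjusted p = 0.0544 and 0.0857).

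Unc13a, a priming factor of synaptic vesicles, went the other way, from 928, 892 and 904 counts to 787, 762 and 727, and fell by 0.26 ± 0.0646 on the log2 scale (edgeR adjusted p = 0.00454, n = 3 per group). It carries both RE1 blocks with the same 8-base spacer as Svop, as printed above. Syt4, a synaptotagmin named after its values were seen, went from 12, 19 and 18 counts to 10, 8 and 3 and fell by 1.21 ± 0.412 (edgeR adjusted p = 0.0283, n = 3 per group), a call lost in DESeq2 (adjusted p = 0.109) and without control replicate 2 or 3 or Crebl2 siRNA replicate 2 or 3 (edgeR adjusted p = 0.106, 0.0874, 0.053 and 0.116). Without control replicate 3, Unc13a was the 1 target that fell. Vgf, a secreted neuropeptide precursor, had 14, 4 and 14 counts in controls and 7, 11 and 12 after knockdown and was not called (log2 fold change -0.09 ± 0.443, edgeR adjusted p = 0.896, n = 3 per group). Among the 5 targets whose matches are printed, Syp and Rundc3a thus rose, Unc13a and Srrm4 fell, and Vgf was not called.

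**Figure D4:**
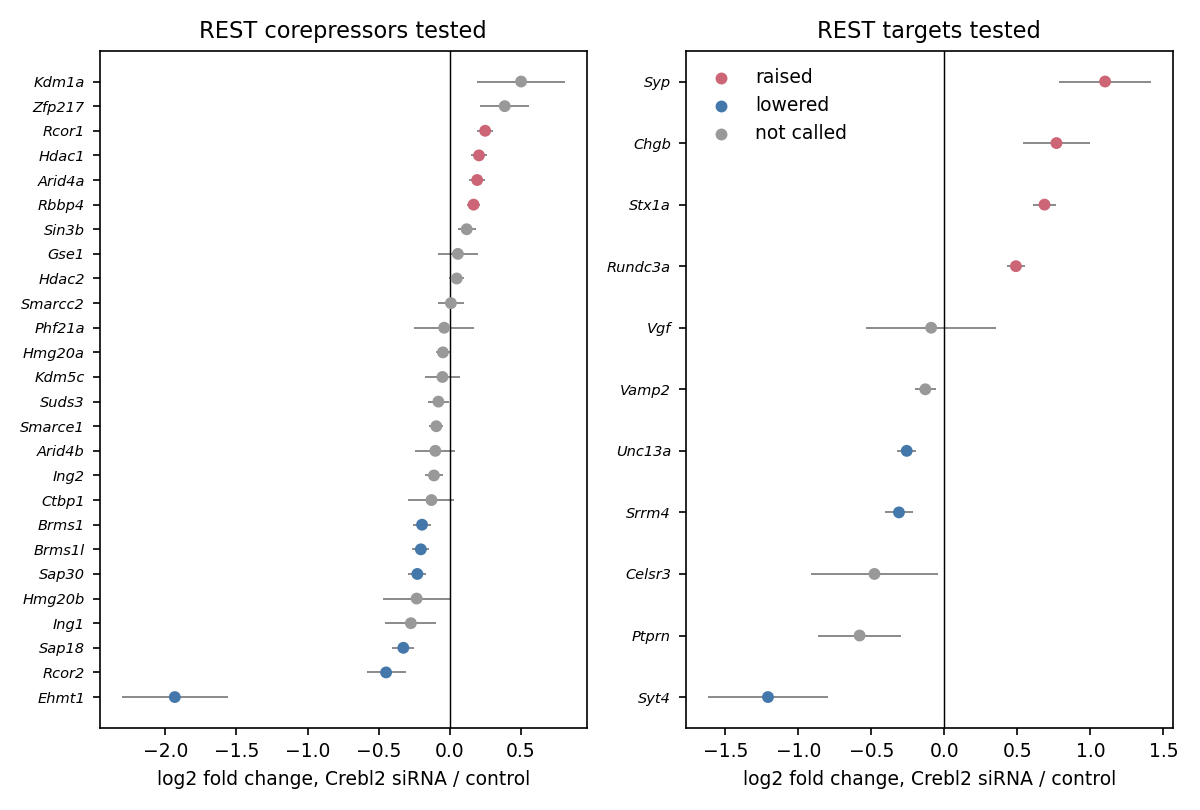
Log2 fold change (Crebl2 siRNA over control) of the tested REST corepressor genes (left) and known REST targets (right), with bars of 1 SE, coloured by the call at an adjusted p under 0.05. Red points are raised (4 and 4), blue points lowered (6 and 3), and both panels spread to either side of 0.

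Genes that hold both RE1 blocks with no mismatch and 2 to 9 bases between them gave another view, chosen after the data were seen. Leaving out Disp2, Svop and Chrnb2, 205 genes held them, of which 95 were tested, 29 rose (30.5%) and 16 fell (16.8%), with a median log2 fold change of 0.04. Among all genes tested 18.8% rose and 20.1% fell. The 4 called genes with the smallest p were Cyp1b1, Mtg1, Tmcc3 and Farp1. Cyp1b1, a cytochrome P450, went from 410, 373 and 362 counts to 656, 758 and 684 and rose by 0.88 ± 0.0809 (edgeR adjusted p = 3.52e-07, n = 3 per group). Mtg1 rose by 0.66 ± 0.0682 and Tmcc3 rose by 0.63 ± 0.0694, while Farp1 fell by 0.51 ± 0.0557 on the log2 scale (edgeR adjusted p = 1.23e-06, 2.41e-06 and 2.25e-06, n = 3 per group). Matches in transcripts can lie in coding sequence, and whether any of them is bound by REST in these cells was not tested.

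Markers of neurons were few in counts in both groups. The 15 neuron markers summed to 1.51 to 1.72 CPM in the control libraries and to 1.11 to 1.37 CPM in the Crebl2 siRNA libraries, lower in each knockdown library. Without Mapt they summed to 28, 24 and 17 counts in controls and 27, 18 and 30 after knockdown, with overlapping groups, so the lower sum rests on Mapt. Dcx (5 and 13 counts in the 2 groups), Gap43 (6 and 13) and Nefl (0 and 4) were higher after knockdown with groups that did not overlap. Groups did not overlap for 48.8% of all genes tested, so little is read from this at such low counts. Uchl1 (25 and 21) and Ncam1 (28 and 20) had more counts and were lower after knockdown, with overlapping groups. All of these were too low to test, and are named after their values were seen. Rbfox3, Elavl4, Nefm, Syt1 and Stmn2 were at 0 in all 6 libraries, but Syt1 has only 89 own bases, so its 0 says little. Mapt was the 1 neuron marker tested and had 21, 22 and 24 counts in controls and 4, 20 and 8 after knockdown, and fell by 1.06 ± 0.404 on the log2 scale (edgeR adjusted p = 0.048, n = 3 per group). The Mapt call was lost in DESeq2 (adjusted p = 0.117), with scaling by library size and when any library but Crebl2 siRNA replicate 2 was left out (edgeR adjusted p up to 0.183).

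The 10 neuroendocrine markers summed to 4 to 4.54 CPM in controls and 3.93 to 4.62 CPM after knockdown. Chga, Insm1, Neurod1 and Pcsk1 were at 0 in every library. Chgb and Syp, which are on this list too, rose as given above. Of the hepatocyte markers, Afp rose by 0.36 ± 0.0448 and Tat rose by 0.82 ± 0.299, and Trf fell by 0.42 ± 0.0649 and Fgb fell by 1.41 ± 0.0708 on the log2 scale (edgeR adjusted p = 9.26e-06, 0.04, 7.27e-05 and 4.45e-10, n = 3 per group). The Tat call was lost in DESeq2 (adjusted p = 0.134) and without control replicate 1 or 3 or Crebl2 siRNA replicate 2 or 3 (edgeR adjusted p = 0.147, 0.11, 0.0548 and 0.18). In bulk RNA a change in the share of cells and a change per cell cannot be told apart.

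The genes whose pattern over the 6 libraries was most like that of Disp2 were Kel, Usp11 and Svop, by root mean square difference of centred log2 CPM (0.294, 0.294 and 0.351). Kel, the gene of the Kell blood group protein, had 0.175, 0.358 and 0.443 CPM in the control libraries and 3.01, 2.31 and 2.88 CPM after knockdown. Usp11, a deubiquitinase, had 0.596, 0.681 and 0.775 CPM and then 3.33, 3.78 and 4.4 CPM. Svop was thus nearer to Disp2 in pattern than were Chrnb2, Srrm3 and Adgrv1. These genes were all chosen for their rise in the same libraries, so no shared pattern is read from this. Closest to Rest were Mrpl30, Anapc5 and Dnajb4 (0.12, 0.128 and 0.139), each with its highest value in control replicate 1, as Rest has, and none was called.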

How the data were processed

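The authors deposited raw read counts per Ensembl transcript, 58611 rows in each of 6 libraries, with no normalisation. The submitters' processing notes list Trim Galore, TopHat, HTSeq and the builds mm9 and GRCm38, with no role or setting for any of them. The transcript rows follow GENCODE M21 (GRCm38), in which 58264 identifiers matched, and the 347 others held 0.0463% of counts. Use of strand in counting: not given in the sources used here.

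Deposited counts were summed per gene (38828 genes) and tested with edgeR 4.0.16 under R 4.3.3: quasi-likelihood test, two-sided, TMM scaling, filterByExpr (11616 genes kept) and Benjamini-Hochberg adjustment over all genes tested, called at an adjusted p under 0.05. SE was derived from the fold change and its F statistic. CPM used TMM-scaled library sizes. Ratios of summed counts have 95% exact binomial intervals, for counting error alone, as these reads carry no molecular identifiers. The procedure was tested on simulated data. Alternatives were DESeq2 1.42.0, limma-voom (limma 3.58.1), other scalings and filters, the replicate block, the largest row, and each library left out. Motifs were searched in GENCODE M21 transcripts and RefSeq promoter windows, in place of the 5 kb genome windows first intended.

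The members and the 12 gene lists were chosen with earlier results of these data known. Besides the 10 genes, Crebl2 and the members of the SRRM, dispatched, SV2-like and nicotinic families, the rule named up to 4 called genes per list with the smallest p, or the 1 smallest where none was called, and the 3 genes nearest in pattern to Rest and to Disp2, among genes with a mean of at least 1 CPM and with a prior count of 2 on the log2 scale. Other names are given as named after their values were seen, or as listed markers at 0. The results of some listed genes are not reported here.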

Additional observations from a re-analysis of the deposited data

How the results depend on the processing

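The 5 neuron-type genes kept their direction under all 14 alternatives run, with log2 fold changes of 6.35 to 7.47 for Srrm3, 2.84 to 2.96 for Disp2, 2.17 to 2.30 for Svop, 1.46 to 1.68 for Chrnb2 and 2.32 to 3.02 for Adgrv1. Rest was not called under any of its 14 alternatives (adjusted p 0.236 to 0.919, log2 fold change -0.47 to 0.0462), and its sign turned to 0.0462 without control replicate 1. The corepressor genes called, 2 of 3 tested, were 1 with DESeq2 and 1 to 2 when each library was left out. The REST partners that fell, 6, were 2 to 6 when each library was left out, 2 of them without Crebl2 siRNA replicate 2. Known REST targets that rose, 4, were 2 with DESeq2, and those that fell, 3, were 1 to 3 when each library was left out, 1 without control replicate 3. With the spacer of 2 bases and 1 mismatch 2 of the 10 genes held the RE1 blocks in the first 1000 bases, 1 with no mismatch, 0 in the promoter window, and 3 with a spacer of 2 to 9 bases. The cause of these differences was not tested. The planned RE1 windows of 5 kb and 10 kb were not run, since no genome sequence was used here, and the transcript windows and the list of genes with both blocks were chosen after seeing the data. Same-numbered libraries did not deviate together (correlations of -0.133, -0.044 and -0.085), so the labels' numbers were not taken as pairs. With the replicate block Rest had a log2 fold change of -0.28 and the calls over all genes went from 4518 to 3983. Depth on own bases limits the account of the repressor genes: 99 and 80 counts for Rest, 43 and 61 for Kdm1a and 0 for Sin3a.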
